A study of Drosophila melanogaster with 4 samples.

Results

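Wing imaginal discs that carried Yorkie (Yki) together with Taiman (Tai) were set against discs that carried GFP alone. The comparison uses 2 of the 4 libraries of the series and takes in all genes measured in them. Drosophila melanogaster larvae at the wandering stage were raised at 25 °C, sorted for GFP and dissected, and the discs of a genotype were pooled to 80 to 100 discs for 1 RNA-seq library. The genotypes were engrailed-GAL4 driving GFP with Yki and Tai (Yki+Tai), GFP with Yki (Yki), GFP with Yki and an inverted-repeat RNAi construct against tai (Yki+Tai-IR), and GFP alone (GFP), so GFP and the driver are common to all 4. The driver is active in posterior cells, and each pool also holds the anterior cells of the same discs. The sources used here give no insertion lines, sex or hours of age. The protocol text names only GFP alone and GFP with Tai, the second of which no sample label gives. The genotypes used here follow the sample labels. Of 13990 genes listed, 318 small-RNA genes were set aside, and 7802 of the other 13672 had a mean of at least 1 FPKM (fragments divided by transcript length and by library size) over the 4 libraries. With 1 pool per genotype no difference has a replicate check and no test or p-value is possible. The steps between low FPKM values put the depth at 12.5 M fragments for Yki+Tai, 9.53 for Yki, 8.29 for Yki+Tai-IR and 8.06 for GFP. Ratios of Yki+Tai to GFP carry a 95% exact (Clopper-Pearson) interval on the fragments so estimated, which covers counting error only and no variation between pools.

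The Hippo pathway is a kinase cascade that holds Yki out of the nucleus. When the cascade is low, Yki enters the nucleus, binds the DNA-binding protein Scalloped and switches on genes for growth and survival. Tai is a coactivator of the ecdysone receptor, the nuclear receptor for the steroid that times moulting and metamorphosis. It also binds Yki, and the title of the series links the pair to genes of germline stem cells in somatic tissue.

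Added yki and tai stood out as the labels describe, but tai transcript in Yki+Tai-IR lay near its level in Yki and GFP. Transcript of yki measured 4535 FPKM in Yki+Tai, 5034 in Yki, 2563 in Yki+Tai-IR and 71.5 in GFP, a ratio of Yki+Tai to GFP of 63.4 (59.0 to 68.2). Transcript of tai measured 1260 FPKM in Yki+Tai, 25.0 in Yki, 22.9 in Yki+Tai-IR and 27.1 in GFP, a ratio of 46.5 (44.7 to 48.4). The eye-colour gene w, a common marker on transgene constructs, measured 104 FPKM in Yki+Tai, 59.9 in Yki, 48.5 in Yki+Tai-IR and 34.2 in GFP.

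Genes of the driver's compartment were at or above the control level, and the anterior gene was below it. The posterior homeobox gene en measured 63.2 FPKM in Yki+Tai, 32.6 in Yki, 23.9 in Yki+Tai-IR and 43.2 in GFP. Its neighbour inv measured 81.8 FPKM in Yki+Tai, against 37.2 in Yki, 35.8 in Yki+Tai-IR and 39.0 in GFP, and the posterior signal hh 50.4, 37.8, 34.6 and 39.8 FPKM in Yki+Tai, Yki, Yki+Tai-IR and GFP. Ratios of Yki+Tai to GFP were 1.46 (1.35 to 1.59) for en, 2.10 (1.98 to 2.23) for inv and 1.27 (1.16 to 1.39) for hh. The anterior transcription factor ci measured 29.8 FPKM in Yki+Tai, 81.3 in Yki, 103 in Yki+Tai-IR and 128 in GFP, a ratio of 0.234 (0.221 to 0.247). The gene ptc, the Hedgehog receptor of anterior cells, measured 19.9 FPKM in Yki+Tai, 21.5 in Yki, 32.3 in Yki+Tai-IR and 54.0 in GFP. In bulk discs, fewer cells of a type and less RNA per cell cannot be told apart, and this holds for every gene below that is active in a region or cell type. Defining wing genes were present at like levels in Yki+Tai and GFP, with 46.1 and 44.0 FPKM for vg, 73.6 and 74.8 for nub and 111.6 and 111.7 for sd. The dorsal selector ap measured 68.0 FPKM in Yki+Tai and 99.3 in GFP.

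Differences are given as log2(FPKM + 1) of Yki+Tai minus GFP, a scale that understates the change of low genes, and a gene is called higher or lower when it lies 2-fold or more apart. By this limit 309 genes (3.96%) were higher in Yki+Tai, yki and tai among them, 272 (3.49%) were lower, and 7221 lay within 2-fold. The counts of called members in each list below are to be read beside these shares. With no FPKM filter 382 of 13672 genes were higher and 310 lower. Counts given below over all members with a value are to be read beside those numbers instead. The median difference over the 7802 genes was -0.00, and the central 90% ran from -0.76 to 0.85. At 4-fold the counts were 98 higher and 51 lower, and at 8-fold they were 38 higher and 16 lower. Calls were frequent among low genes. Between 1 and 3 FPKM on average 12.2% of 647 genes were higher and 8.66% lower, whereas from 100 FPKM upward 1.82% of 1043 genes were higher and 0.863% lower. The filter takes in some genes through the library where they are high: the mean over the other 3 libraries was under 1 FPKM without Yki+Tai for 51 of the 309 higher genes, and without GFP for 16 of the 272 lower genes. Just inside the limits lay Lk6, with 277 FPKM in Yki+Tai and 138 in GFP, and yellow-c, with 0.909 FPKM in Yki+Tai and 2.82 in GFP. Just outside lay CG14471, with 17.3 FPKM in Yki+Tai and 8.15 in GFP, and CG14104, with 25.0 FPKM in Yki+Tai and 50.9 in GFP.

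**Figure D1:**
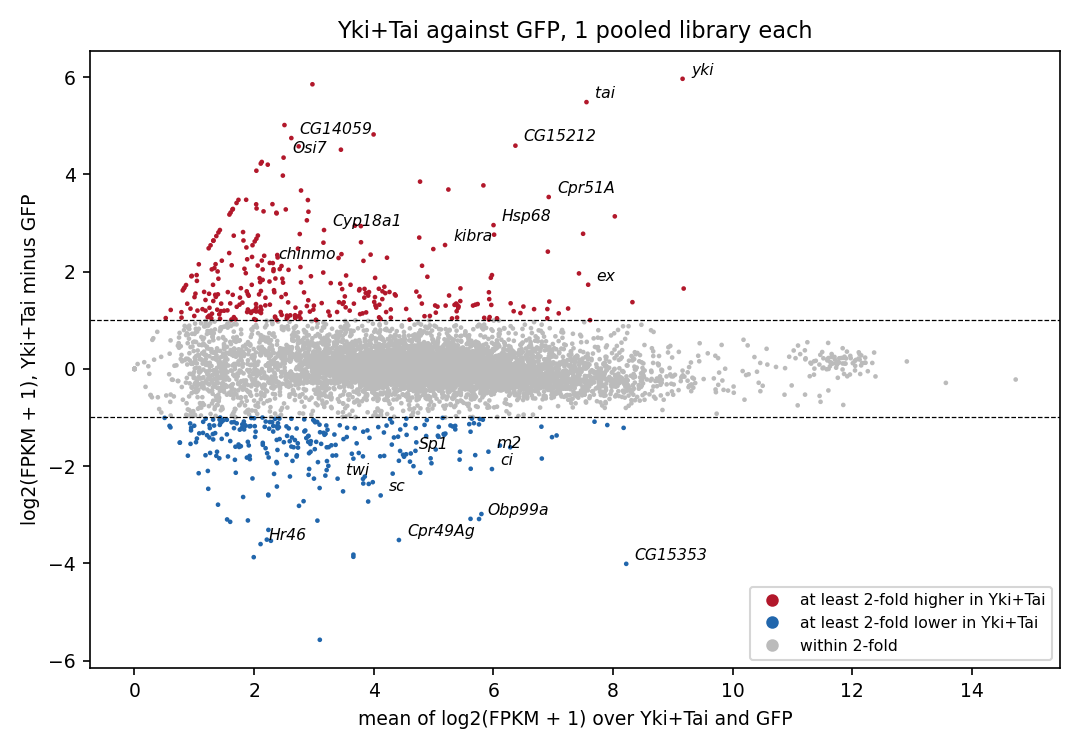
Difference between Yki+Tai and GFP for the 7802 genes past the filter. The x axis is the mean of log2(FPKM + 1) over the 2 libraries and the y axis is log2(FPKM + 1) of Yki+Tai minus GFP; red points are the 309 genes at least 2-fold higher, blue points the 272 genes at least 2-fold lower, grey points the rest, and dashed lines the 2-fold limits. The calls thin out toward the right, where genes are abundant, apart from the transgenes yki and tai.

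Median levels of the called genes in the 2 libraries outside this comparison lay between those of Yki+Tai and GFP. Among the 309 higher genes the median level was 11.1 FPKM in Yki+Tai, 4.08 in Yki, 5.22 in Yki+Tai-IR and 2.02 in GFP. Of these genes 250 were highest in Yki+Tai, 15 in Yki and 44 in Yki+Tai-IR. Among the 272 lower genes the median level was 2.83 FPKM in Yki+Tai, 5.02 in Yki, 8.69 in Yki+Tai-IR and 11.4 in GFP, and 207 of them were lowest in Yki+Tai, 55 in Yki and 8 in Yki+Tai-IR, with ties left out. These genes were picked by their difference between Yki+Tai and GFP, which by itself tends to make those libraries the extremes, so the order is given as a description.

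The upper end of the ranking held cuticle, Osiris and gustatory receptor genes beside genes known only by number. CG15212 measured 405 FPKM in Yki+Tai, 9.21 in Yki, 10.1 in Yki+Tai-IR and 15.8 in GFP, a ratio of 25.6 (17.8 to 38.0), and its neighbour on chromosome arm 3L, CG15213, measured 31.3, 1.37 and 0.785 FPKM in Yki+Tai, Yki and Yki+Tai-IR and was listed at 0 in GFP. CG16704 measured 84.0 FPKM in Yki+Tai, 5.07 in Yki, 0 in Yki+Tai-IR and 2.00 in GFP. CG9521 measured 31.8 FPKM in Yki+Tai, 7.17 in Yki, 3.40 in Yki+Tai-IR and 0.373 in GFP. All 4 were highest in Yki+Tai, and Yki alone lay well under it. CG15546 measured 103 FPKM in Yki+Tai, 6.72 in Yki, 1.41 in Yki+Tai-IR and 6.203 in GFP, and CG14545 measured 21.1, 6.18, 2.57 and 0.407 FPKM in Yki+Tai, Yki, Yki+Tai-IR and GFP. CG31607 measured 209.9 FPKM in Yki+Tai, 117 in Yki, 49.5 in Yki+Tai-IR and 14.4 in GFP. The short accessory-gland gene Acp98AB was listed at 15.9 FPKM in Yki+Tai and at 0 in the other 3 libraries. The non-coding alphagamma-element:CR32865 of the heat-shock locus measured 51.2 FPKM in Yki+Tai, 4.63 in Yki, 12.3 in Yki+Tai-IR and 1.29 in GFP. The remaining members of the upper 15 are described with their groups, except for 2 with features of the annotation beside them.

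MED9, the gene of a Mediator subunit, headed the ranking at 58.8 FPKM in Yki+Tai, 41.9 in Yki, 71.0 in Yki+Tai-IR and 0.0338 in GFP. All of its exons are shared on the same strand with CG42518, which measured 14.9 FPKM in Yki+Tai, 36.7 in Yki, 7.69 in Yki+Tai-IR and 60.2 in GFP. Summed, the pair measured 73.7 FPKM in Yki+Tai, 78.7 in Yki, 78.7 in Yki+Tai-IR and 60.3 in GFP, a difference of 0.29. The gustatory receptor gene Gr64a measured 18.1 FPKM in Yki+Tai, 16.9 in Yki, 12.6 in Yki+Tai-IR and was listed at 0 in GFP. Its neighbours Gr64b, Gr64c, Gr64d, Gr64e and Gr64f and the adjacent CG11594 were also higher in Yki+Tai, at 3L:4022700-4037575 (dm6). Gr64c, for example, measured 11.2 FPKM in Yki+Tai, 12.0 in Yki, 7.46 in Yki+Tai-IR and 0.0927 in GFP. Exons of Gr64b overlap those of Gr64c on the same strand, and those of Gr64d overlap Gr64e, whereas no exon of Gr64a is overlapped. The receptors of this block were at 2.06 FPKM or more in the 3 libraries with a Yki transgene, and at 0.0927 FPKM or less in GFP. In all, 24 of the 309 higher genes were listed at 0 in GFP and 10 of the 272 lower genes at 0 in Yki+Tai. An exact 0 in such a table can be a failed estimate, so no ratio is given against it.

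At the lower end the genes were mostly of unnamed function. CG30356 measured 0.242 FPKM in Yki+Tai, 55.3 in Yki, 1.45 in Yki+Tai-IR and 58.1 in GFP. The genes CG31157 and Hsc70-2, which lie side by side on chromosome arm 3R, had the same alternation, with Hsc70-2 at 0.0405 FPKM in Yki+Tai, 14.1 in Yki, 0.0608 in Yki+Tai-IR and 14.2 in GFP. CG31157 was listed at 0 in Yki+Tai, measured 8.81 FPKM in Yki, was listed at 0 in Yki+Tai-IR and measured 7.56 FPKM in GFP. CG42637 measured 0.0188, 5.97, 0.0161 and 8.02 FPKM in Yki+Tai, Yki, Yki+Tai-IR and GFP. These 4 genes were at 1.45 FPKM or less in Yki+Tai and Yki+Tai-IR and at 5.97 FPKM or more in Yki and GFP. CG15353 was an abundant lower gene, with 73.4 FPKM in Yki+Tai, 449 in Yki, 1312 in Yki+Tai-IR and 1197 in GFP, a ratio of 0.0613 (0.0505 to 0.0732). Exons of CG15353 are covered to 70.3% by an antisense RNA, and the library kit does not keep strand. CG15282 measured 2.31 FPKM in Yki+Tai, 13.4 in Yki, 47.2 in Yki+Tai-IR and 47.2 in GFP, and CG11370 measured 2.36, 5.99, 41.8 and 46.5 FPKM in Yki+Tai, Yki, Yki+Tai-IR and GFP. Levels of Obp99a, an odorant-binding protein gene, were 17.6 FPKM in Yki+Tai, 23.5 in Yki, 91.5 in Yki+Tai-IR and 157 in GFP, and those of the glutamine synthetase gene Gs2 were 0.498, 2.57, 23.4 and 13.9 FPKM in Yki+Tai, Yki, Yki+Tai-IR and GFP. CG2663, CG12009 and CG42500 were the other members of the lowest 15 outside the groups below. They measured 0.372, 0.263 and 1.82 FPKM in Yki+Tai against 14.7, 9.97 and 23.6 FPKM in GFP.

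The Hippo pathway genes ex, kibra and wts, known as targets of Yki, were higher, while most other targets lay within 2-fold of the control. Of 21 listed Yki targets, 20 passed the FPKM filter, of which 4 were higher and 1 lower, with a median difference of 0.23. The apical adaptor gene ex measured 349 FPKM in Yki+Tai, 222 in Yki, 143 in Yki+Tai-IR and 104 in GFP, a ratio of 3.34 (3.25 to 3.44). The scaffold gene kibra measured 87.4 FPKM in Yki+Tai, 33.8 in Yki, 28.5 in Yki+Tai-IR and 14.1 in GFP, a ratio of 6.19 (5.70 to 6.73). The kinase gene wts, whose product phosphorylates Yki, measured 43.7 FPKM in Yki+Tai, 24.3 in Yki, 20.2 in Yki+Tai-IR and 20.03 in GFP. All 3 thus had their highest level in Yki+Tai. Other upstream regulators in the target list lay within 2-fold, with differences of 0.12 for Mer, 0.22 for crb and -0.43 for fj. The caspase inhibitor gene th (Diap1) measured 389 FPKM in Yki+Tai, 277 in Yki, 251 in Yki+Tai-IR and 233 in GFP, a ratio of 1.67 (1.61 to 1.73). The Notch ligand gene Ser was the lower member, with 38.4 FPKM in Yki+Tai, 48.0 in Yki, 57.4 in Yki+Tai-IR and 80.4 in GFP. The secreted signal wg measured 25.7 FPKM in Yki+Tai, 40.3 in Yki, 42.7 in Yki+Tai-IR and 38.2 in GFP, a ratio of 0.673 (0.611 to 0.741). Myc (dm), CycE and E2f, which promote growth and entry into S phase, differed by 0.24, 0.03 and 0.22. In the separate Hippo pathway list, which does not hold ex and kibra, wts was the 1 gene called of 34 past the filter. The median of that list was 0.04, and over all genes 3.96% were higher and 3.49% lower. The upstream cadherin gene ft measured 61.7 FPKM in Yki+Tai and 44.4 in GFP, and the kinase gene hpo 40.8 in Yki+Tai and 46.1 in GFP.

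The genes of Ilp8 and chinmo and 5 of 32 wound genes were higher. CG14059 encodes Ilp8, the relaxin-like peptide by which damaged or overgrown discs delay pupariation. It measured 30.9 FPKM in Yki+Tai, 26.02 in Yki, 9.66 in Yki+Tai-IR and 0.188 in GFP, or about 254 fragments in Yki+Tai and 1 in GFP, a ratio of 164 (29.1 to 6491). The transcription factor gene chinmo, which marks early larval identity in discs, measured 9.21 FPKM in Yki+Tai, 8.21 in Yki, 8.18 in Yki+Tai-IR and 1.25 in GFP, a ratio of 7.35 (5.64 to 9.65). For chinmo the 3 libraries with Yki lay close together, whereas Ilp8 was lower in Yki+Tai-IR than in the other 2. The list of temporal identity genes, which holds chinmo, had 1 higher and 2 lower of 9 past the filter, with a median of -0.15. Among 32 JNK and wound genes past the filter 5 were higher and 1 lower, with 25 above 0 and a median of 0.35. Thor, the inhibitor of cap-dependent translation, measured 44.5 FPKM in Yki+Tai, 17.7 in Yki, 27.4 in Yki+Tai-IR and 14.1 in GFP. The JNK target scaf measured 83.7, 28.6, 16.2 and 32.6 FPKM in Yki+Tai, Yki, Yki+Tai-IR and GFP, and mol, which matures the peroxide-producing oxidase Duox, measured 6.59, 10.3, 9.88 and 2.04 FPKM in Yki+Tai, Yki, Yki+Tai-IR and GFP. The JNK phosphatase puc, the AP-1 genes Jra and kay and the metalloproteinase gene Mmp1 lay within 2-fold. Their levels were 27.5, 97.6, 69.1 and 54.9 FPKM in Yki+Tai and 17.3, 58.2, 42.4 and 33.9 FPKM in GFP. The TNF gene egr was the lower member, with 2.76 FPKM in Yki+Tai and 6.64 in GFP. None of 16 apoptosis genes past the filter was called in either direction, and their median was -0.06.

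Germline genes differed one by one and not as a group. The Argonaute gene piwi, which silences transposons through piRNAs and maintains germline stem cells, measured 7.06 FPKM in Yki+Tai, 3.16 in Yki, 1.42 in Yki+Tai-IR and 0.690 in GFP, a ratio of 10.2 (6.15 to 18.1). The translational repressor gene nos measured 2.38 FPKM in Yki+Tai, 1.02 in Yki, 0.168 in Yki+Tai-IR and 0.0578 in GFP, about 64 fragments in Yki+Tai and 1 in GFP. Its mean was under the filter, so it is in no count, and it overlaps CG11779 on the opposite strand. The differentiation gene bam measured 2.13 FPKM in Yki+Tai, 1.57 in Yki and 0.936 in Yki+Tai-IR and was listed at 0 in GFP, with 46, 26, 13 and 0 fragments. These 3 genes shared 1 order, highest in Yki+Tai, then Yki, then Yki+Tai-IR, then GFP. The RNA helicase gene vas was also under the filter, at 0.920 FPKM in Yki+Tai, 0.201 in Yki, 0.346 in Yki+Tai-IR and 0.357 in GFP. Of 26 germline stem cell genes with a value, 17 passed the filter, with a median of -0.00. Of these, piwi and bam were higher, beside 3.96% of all genes, but bam passed only through its level in Yki+Tai. Over all 26 there were 3 higher and 0 lower, with a median of 0.08. Of 25 piRNA pathway genes 20 passed, and the Tudor-domain gene krimp was the 1 higher member, a share near the 3.96% of all genes, with 51.2 FPKM in Yki+Tai, 37.2 in Yki, 12.2 in Yki+Tai-IR and 20.5 in GFP. The list's median was -0.02. Deadlock (del), a partner in piRNA cluster transcription, measured 35.2 FPKM in Yki+Tai and 19.9 in GFP, while Hen1, the methyltransferase of piRNA ends, measured 5.90 in Yki+Tai and 10.3 in GFP.

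**Figure D2:**
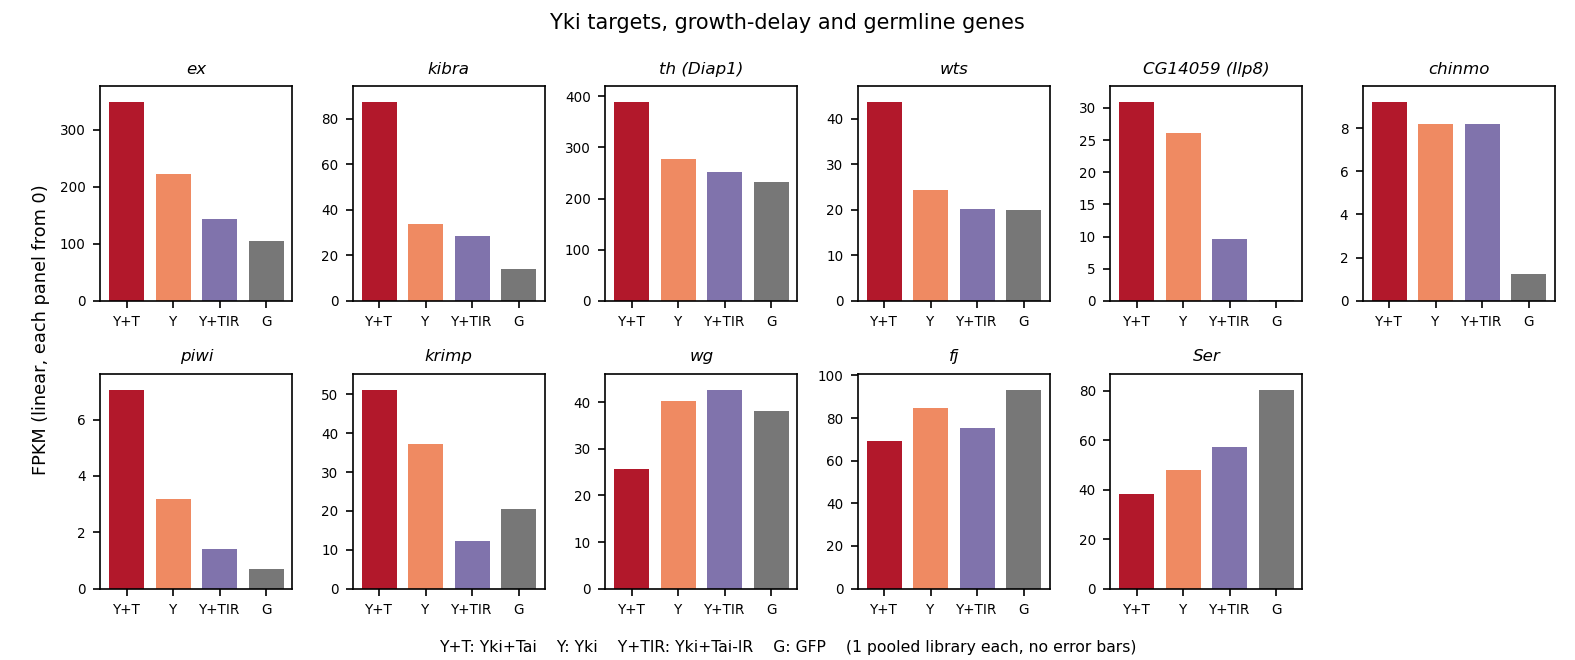
FPKM of Yki targets, growth-delay genes and germline genes in the 4 libraries, 1 pooled library each and no error bars; every panel has a linear axis from 0 and bars in the order Yki+Tai, Yki, Yki+Tai-IR and GFP. The genes ex, kibra, wts and piwi are highest in Yki+Tai and lowest in GFP, chinmo is at 8.18 to 9.21 FPKM in the 3 libraries with Yki, and Ser and fj are lowest in Yki+Tai.

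The ecdysone cascade differed in both directions. In the prepupal part of the cascade the nuclear receptors Hr46 (Hr3) and Hr4 act with Blimp-1 ahead of ftz-f1, the competence factor that activates prepupal cuticle genes. Hr46 measured 0.236 FPKM in Yki+Tai, 4.28 in Yki, 3.76 in Yki+Tai-IR and 14.0 in GFP, a ratio of 0.0168 (0.0107 to 0.0257). Hr4 measured 1.53 FPKM in Yki+Tai, 6.27 in Yki, 4.75 in Yki+Tai-IR and 16.9 in GFP, a ratio of 0.0910 (0.0765 to 0.108). Blimp-1, a repressor of ftz-f1, measured 3.82 FPKM in Yki+Tai, 9.75 in Yki, 5.29 in Yki+Tai-IR and 17.0 in GFP. All 3 were lowest in Yki+Tai and highest in GFP. The gene ftz-f1 itself measured 8.53 FPKM in Yki+Tai, 9.62 in Yki, 9.86 in Yki+Tai-IR and 2.69 in GFP, a ratio of 3.17 (2.58 to 3.90). The prepupal cuticle gene Edg78E measured 8.33 FPKM in Yki+Tai, 1.24 in Yki, 0.793 in Yki+Tai-IR and 0.327 in GFP, and Edg84A measured 5.25 FPKM in Yki+Tai and was listed at 0 in the other 3 libraries. Exons of Hr46 are covered to 81.6% by CG12912 on the same strand, which was listed at 0 in all 4 libraries.

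Genes at the head of the cascade lay within 2-fold. The receptor gene EcR measured 43.2 FPKM in Yki+Tai, 42.9 in Yki, 44.0 in Yki+Tai-IR and 35.2 in GFP, and its partner usp 38.1, 30.04, 34.9 and 36.2 FPKM in Yki+Tai, Yki, Yki+Tai-IR and GFP. The early genes br, Eip75B and Eip74EF differed by -0.15, -0.22 and -0.25. Cyp18a1, the cytochrome P450 that inactivates ecdysone, measured 23.2 FPKM in Yki+Tai, 8.43 in Yki, 5.22 in Yki+Tai-IR and 2.34 in GFP, a ratio of 9.90 (7.45 to 13.2). The secreted leucine-rich repeat gene ImpE3 and the nuclear receptor gene Eip78C were lower, at 17.5 and 10.4 FPKM in Yki+Tai and 57.3 and 27.3 FPKM in GFP. ImpL3, the lactate dehydrogenase gene, measured 68.1 FPKM in Yki+Tai, 12.0 in Yki, 48.2 in Yki+Tai-IR and 9.63 in GFP, a ratio of 7.07 (5.86 to 8.56). Of 34 ecdysone response genes past the filter 5 were higher and 5 lower, beside 3.96% and 3.49% of all genes, with a median of -0.14. Of the higher members, Edg78E and Edg84A passed only through their level in Yki+Tai. Over all 36 with a value 6 were higher and 5 lower, with a median of -0.11.

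Cuticle genes were called in both directions, while most of those with a value lay within 2-fold. Over all 124 cuticle protein genes with a value, 20 were higher and 9 lower, with a median of 0.00. The filter kept 39 of them, 14 higher and 8 lower with a median of 0.36, but 7 of these 14 passed only through their level in Yki+Tai, so these numbers describe the members kept and support no shift of the list. Cpr51A measured 413 FPKM in Yki+Tai, 94.7 in Yki, 33.9 in Yki+Tai-IR and 34.7 in GFP, a ratio of 11.9 (9.95 to 14.4). TwdlE, of the Tweedle family, measured 135 FPKM in Yki+Tai, 21.8 in Yki, 7.70 in Yki+Tai-IR and 9.58 in GFP, a ratio of 14.1 (11.4 to 17.7). Lcp65Ad measured 17.7, 2.45 and 0.805 FPKM in Yki+Tai, Yki and Yki+Tai-IR and was listed at 0 in GFP, and Cpr100A measured 15.01, 0.625, 0.923 and 0.529 FPKM in Yki+Tai, Yki, Yki+Tai-IR and GFP. These 4 stood clear of the other libraries in Yki+Tai. In the other direction, Cpr49Ag measured 5.32 FPKM in Yki+Tai, 23.7 in Yki, 40.0 in Yki+Tai-IR and 71.6 in GFP, and Cpr64Aa measured 6.06 in Yki+Tai, 36.4 in Yki, 36.4 in Yki+Tai-IR and 34.5 in GFP. The larval cuticle genes Lcp1, Lcp2, Lcp3 and Lcp4, which lie next to each other, were all lower, at 5.45, 0.955, 1.04 and 1.67 FPKM in Yki+Tai and 29.96, 5.92, 6.06 and 9.06 FPKM in GFP. These near-identical copies share fragments, so their separate values are uncertain.

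Osiris genes encode transmembrane proteins of epithelia that secrete cuticle. Over all 23 with a value there were 5 higher and 0 lower, with a median of 0.12. The filter kept 5 of the 23, of which 4 were higher, and Osi6 and Osi7 passed only through their level in Yki+Tai. Osi7 measured 24.4 FPKM in Yki+Tai, 0.335 in Yki, 1.64 in Yki+Tai-IR and 0.248 in GFP, a ratio of 98.1 (41.6 to 301). Osi6 measured 19.1 FPKM in Yki+Tai, 0.312 in Yki, 1.17 in Yki+Tai-IR and 0.0925 in GFP, about 390 fragments in Yki+Tai and 1 in GFP. Osi2 measured 31.5, 9.12, 4.87 and 9.08 FPKM in Yki+Tai, Yki, Yki+Tai-IR and GFP. These 3 genes form a run of called genes at 3R:6209373-6251683 (dm6), counted among genes past the filter only, so genes that failed it can lie between them. Osi15 was higher only against a value listed at 0 in GFP, with 2.19 FPKM in Yki+Tai against 5.01 in Yki and 5.17 in Yki+Tai-IR. Among 34 genes of the apical matrix and chitin past the filter 6 were higher and 5 lower, with a median of 0.18. Ddc, the enzyme that makes dopamine for cuticle tanning, measured 16.8 FPKM in Yki+Tai, 2.90 in Yki, 4.53 in Yki+Tai-IR and 1.597 in GFP. The chitinase gene Cht6 measured 32.2, 16.7, 12.5 and 10.1 FPKM and the chitin-binding gene Gasp 202, 120, 206 and 90.9 FPKM in Yki+Tai, Yki, Yki+Tai-IR and GFP. The genes tyn, mey, nyo and neo, which encode zona pellucida proteins of the larval apical matrix, were all lower, at 11.2, 11.1, 17.2 and 33.7 FPKM in Yki+Tai and 40.5, 38.0, 46.4 and 74.2 FPKM in GFP.

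**Figure D3:**
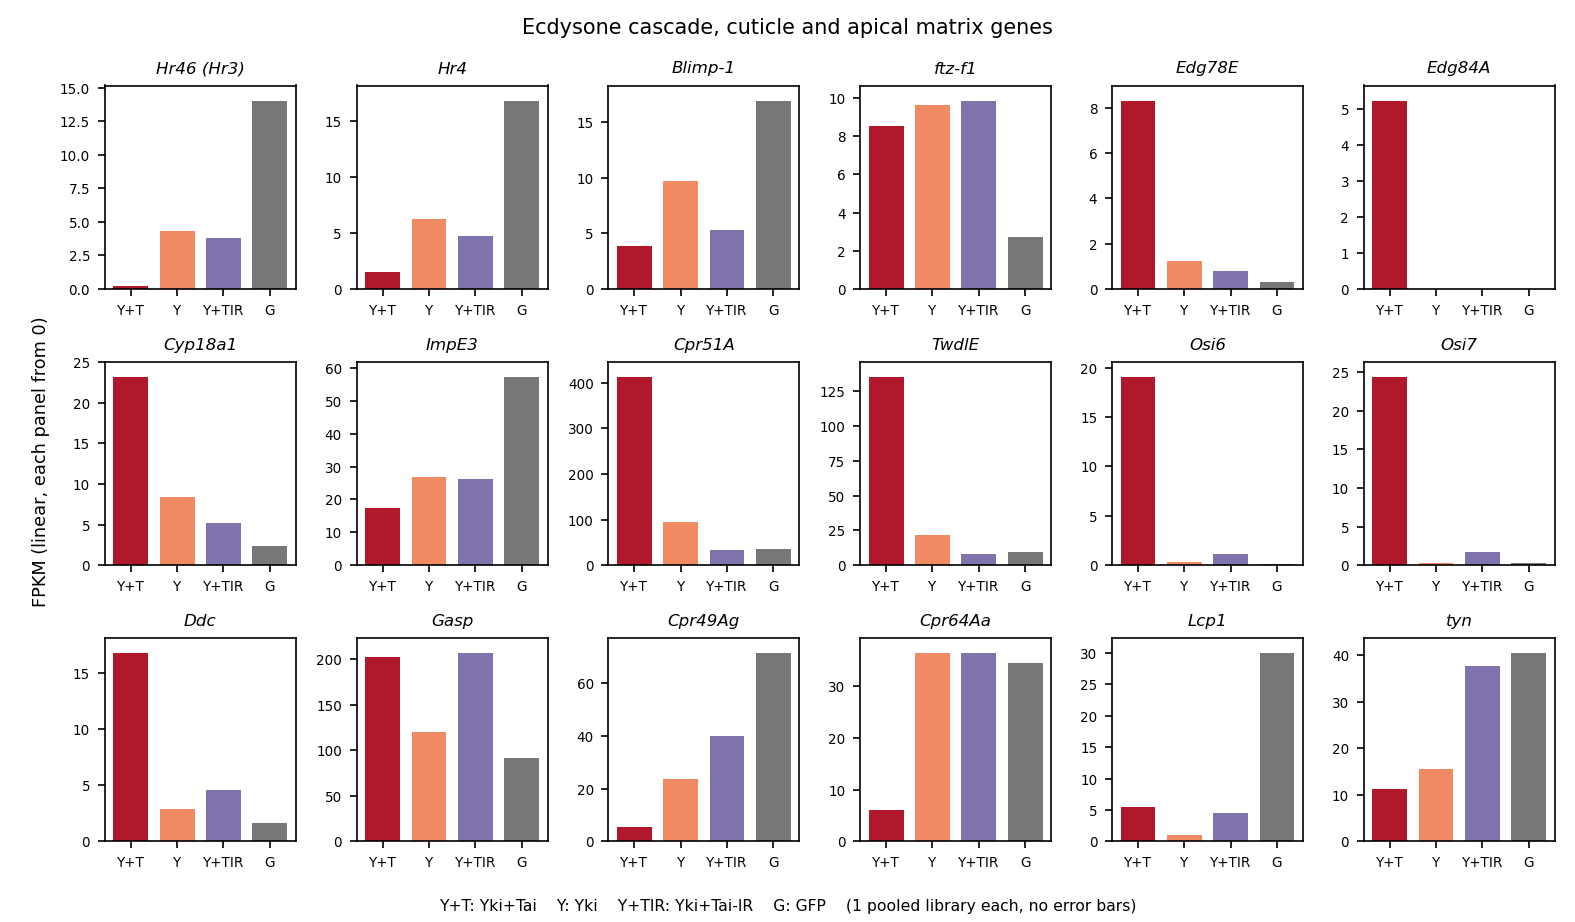
FPKM of ecdysone cascade, cuticle, Osiris and apical matrix genes in the 4 libraries, 1 pooled library each and no error bars; every panel has a linear axis from 0 and bars in the order Yki+Tai, Yki, Yki+Tai-IR and GFP. Hr46, Hr4 and Blimp-1 are lowest in Yki+Tai and highest in GFP, ftz-f1 is at 8.53 to 9.86 FPKM in the 3 libraries with Yki, and Edg78E, Edg84A, Cpr51A, TwdlE, Osi6, Osi7 and Ddc are far higher in Yki+Tai than elsewhere.

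Several targets of Notch signalling and several proneural genes were lower, while the receptor and its DNA-binding partner were near the control level. Of 29 Notch pathway genes past the filter 0 were higher and 7 lower, 23 lay below 0, and the median was -0.46. The E(spl) complex gene m6 measured 3.27 FPKM in Yki+Tai, 12.2 in Yki, 11.6 in Yki+Tai-IR and 18.5 in GFP, a ratio of 0.176 (0.120 to 0.254), and m2 measured 32.5, 37.2, 68.1 and 108 FPKM in Yki+Tai, Yki, Yki+Tai-IR and GFP. The repressor genes HLHmgamma, HLHmdelta, HLHm3 and HLHm7 of the same complex measured 4.68, 11.4, 30.4 and 25.7 FPKM in Yki+Tai and 15.9, 32.0, 75.9 and 62.4 FPKM in GFP. The receptor gene N measured 93.3 FPKM in Yki+Tai, 78.3 in Yki, 69.2 in Yki+Tai-IR and 91.7 in GFP, a ratio of 1.02 (0.989 to 1.05), and Su(H), which carries the signal to DNA, measured 14.9, 15.7, 13.5 and 15.3 FPKM in Yki+Tai, Yki, Yki+Tai-IR and GFP. Proneural genes give epidermal cells the potential to become bristle precursors, and of 18 proneural and sensory genes past the filter 0 were higher and 6 lower, with a median of -0.55. The proneural gene sc measured 6.03 FPKM in Yki+Tai, 18.0 in Yki, 23.3 in Yki+Tai-IR and 41.8 in GFP, a ratio of 0.144 (0.115 to 0.182), and ac measured 5.65, 15.1, 25.6 and 33.3 FPKM in Yki+Tai, Yki, Yki+Tai-IR and GFP. Their antagonist emc was lower as well, with 160 FPKM in Yki+Tai, 305 in Yki, 314 in Yki+Tai-IR and 357 in GFP. The precursor gene sens measured 0.675 FPKM in Yki+Tai and 5.12 in GFP, and the proneural gene ato of stretch receptors 0.813 in Yki+Tai and 4.08 in GFP.

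Single regional genes of the disc differed in both directions. The notum list had 0 higher and 2 lower of 14 genes past the filter, with a median of -0.51, and its lower members were the Pax gene eyg, at 4.98 FPKM in Yki+Tai and 16.7 in GFP, and the homeobox gene B-H1, at 2.11 in Yki+Tai and 6.30 in GFP. Of 17 wing pouch genes 1 was higher and 1 lower, beside 3.96% and 3.49% of all genes, with a median of -0.02. The homeobox gene dve measured 99.3 FPKM in Yki+Tai, 48.7 in Yki, 32.9 in Yki+Tai-IR and 36.1 in GFP, and ct, a gene of the wing margin and of myoblasts, 1.49, 1.92, 2.55 and 5.57 FPKM in Yki+Tai, Yki, Yki+Tai-IR and GFP. In the hinge list the transcriptional cofactor gene nab measured 63.6 FPKM in Yki+Tai and 21.7 in GFP, and the odd-skipped family genes drm and odd were lower, at 21.7 and 3.58 FPKM in Yki+Tai and 81.7 and 10.2 in GFP. The Hedgehog target kn, a gene of the centre of the wing, measured 24.1 FPKM in Yki+Tai, 15.03 in Yki, 3.34 in Yki+Tai-IR and 7.49 in GFP, a difference of 1.56. Medians of the Dpp, Wnt, EGFR and JAK-STAT lists were 0.15, -0.03, -0.06 and 0.11, each within 0.2 of 0. Called members were the Dpp antagonist sog, at 69.7 FPKM in Yki+Tai and 25.9 in GFP, the Ryk-type receptor gene drl, at 233 in Yki+Tai and 98.0 in GFP, Wnt4, at 2.14 in Yki+Tai and 5.66 in GFP, and sens, the lower member of the Wnt list with the largest difference, at the levels given above. In the EGFR list the activating protease gene rho measured 2.54 FPKM in Yki+Tai and 9.72 in GFP, and the effector gene pnt 6.72 in Yki+Tai and 16.9 in GFP. Socs36E, a direct target of JAK-STAT signalling, measured 37.6 FPKM in Yki+Tai and 39.5 in GFP, while the higher members of the JAK-STAT list were chinmo, described above, and TepII, at 24.3 FPKM in Yki+Tai and 7.90 in GFP.

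Genes that mark leg discs lay below the control without exception. All 24 leg genes in the table passed the filter, all 24 lay below 0, 18 were called lower, and the median was -1.55. Together they summed to 197 FPKM in Yki+Tai, 172 in Yki, 444 in Yki+Tai-IR and 575 in GFP. AP-2 measured 4.83 FPKM in Yki+Tai, 0.569 in Yki, 23.6 in Yki+Tai-IR and 37.6 in GFP, and Sp1, a selector of leg identity, 12.4, 0.144, 27.9 and 43.9 FPKM in Yki+Tai, Yki, Yki+Tai-IR and GFP. The genes fd96Ca, fd96Cb and H15 were listed at 0 in Yki and measured 2.54, 11.6 and 1.66 FPKM in Yki+Tai and 11.2, 46.2 and 9.20 FPKM in GFP. Of the 24 genes 18 were lowest in Yki, these among them, and 6 in Yki+Tai. Of the 24 genes 7 are also in another list, and several, such as drm, odd and B-H1, are known to be active in parts of the wing disc. The Hox gene Scr, active in the discs of the forelegs, measured 0.611 FPKM in Yki+Tai, 0 in Yki, 3.50 in Yki+Tai-IR and 3.03 in GFP. The part of leg disc tissue in the results was not tested; without the genes of the leg, myoblast, muscle, hemocyte, fat body, neuron, gut and heat shock lists 295 genes were higher and 233 lower, of 7684.

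Muscle precursors lie beneath the notum of the wing disc, and their genes lay below the control as well. Of 19 markers of these myoblasts 17 passed the filter, all 17 lay below 0, 9 were called lower, and the median was -1.18. Twist (twi), the transcription factor that defines them, measured 3.81 FPKM in Yki+Tai, 6.73 in Yki, 11.7 in Yki+Tai-IR and 22.0 in GFP, a difference of -2.26. Him, an inhibitor of muscle differentiation, measured 3.51, 7.55, 12.4 and 18.1 FPKM, and the FGF receptor gene htl 2.86, 5.04, 7.12 and 9.66 FPKM in Yki+Tai, Yki, Yki+Tai-IR and GFP. These 3 genes shared 1 order of libraries, lowest in Yki+Tai and highest in GFP. The largest difference in the list was CG11835, annotated as uncNacbeta, with 0.427 FPKM in Yki+Tai and 15.6 in GFP. Summed over 19 genes the markers came to 314 FPKM in Yki+Tai, 338 in Yki, 333 in Yki+Tai-IR and 511 in GFP, and 1 marker was listed at 0 in every library. Of 18 sarcomere genes past the filter 0 were higher and 7 lower, with a median of -0.62, and the actin gene Act87E measured 1.76 FPKM in Yki+Tai, 5.46 in Yki, 10.7 in Yki+Tai-IR and 17.2 in GFP. Over all 31 sarcomere genes with a value the median was -0.25. They summed to 682 FPKM in Yki+Tai, 776 in Yki, 721 in Yki+Tai-IR and 722 in GFP, and the abundant Tm1 differed by 0.12.

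Several marker genes of blood cells were highest in Yki+Tai, while others lay near the control or below it. All 21 hemocyte markers had a value above 0 in Yki+Tai and in GFP, and over all 21 there were 7 higher and 1 lower, with a median of 0.37. The filter kept 15, with a median of 0.63, but 4 of the 7 higher members (nimC1, Sr-CI, nimB4 and Hml) passed only through their level in Yki+Tai. The phagocytic receptor gene nimC1 measured 7.70 FPKM in Yki+Tai, 0.341 in Yki, 0.719 in Yki+Tai-IR and 0.539 in GFP, a ratio of 14.3. The clotting gene Hml measured 4.29, 0.467, 0.320 and 0.842 FPKM and the scavenger receptor gene Sr-CI 5.46, 0.343, 0.197 and 0.474 FPKM in Yki+Tai, Yki, Yki+Tai-IR and GFP. The matrix gene BM-40-SPARC, which other tissues also express, was the lower member, at 35.5 FPKM in Yki+Tai and 79.5 in GFP. Members past the filter that were called neither way ran from -0.32 for proPO-A1 to 0.63 for crq, with vkg at -0.00 and Ppn at 0.01. The markers summed to 366 FPKM in Yki+Tai, 276 in Yki, 252 in Yki+Tai-IR and 355 in GFP. Abundant genes dominate this sum, and it differed less than nimC1, Hml and Sr-CI. At a mean of 5 FPKM or more the list's median was 0.00. Immune genes had 2 higher and 1 lower of 14 past the filter, with the NF-kappaB gene Dif at 16.7 FPKM in Yki+Tai and 3.49 in GFP. Over all 34 immune genes with a value 2 were higher and 4 lower, with a median of 0.00. Of 23 fat body genes 13 passed the filter, with 0 higher and 2 lower, and they summed to 60.4 FPKM in Yki+Tai, 54.3 in Yki, 63.5 in Yki+Tai-IR and 73.6 in GFP over the 23. Neuronal and glial markers summed to 37.4 FPKM in Yki+Tai and 37.6 in GFP. Gut and salivary gland markers were near absent, with 14 of 19 listed at 0 in Yki+Tai and 13 of 19 in GFP. The part of adhering blood cells in these values was not tested.

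**Figure D4:**
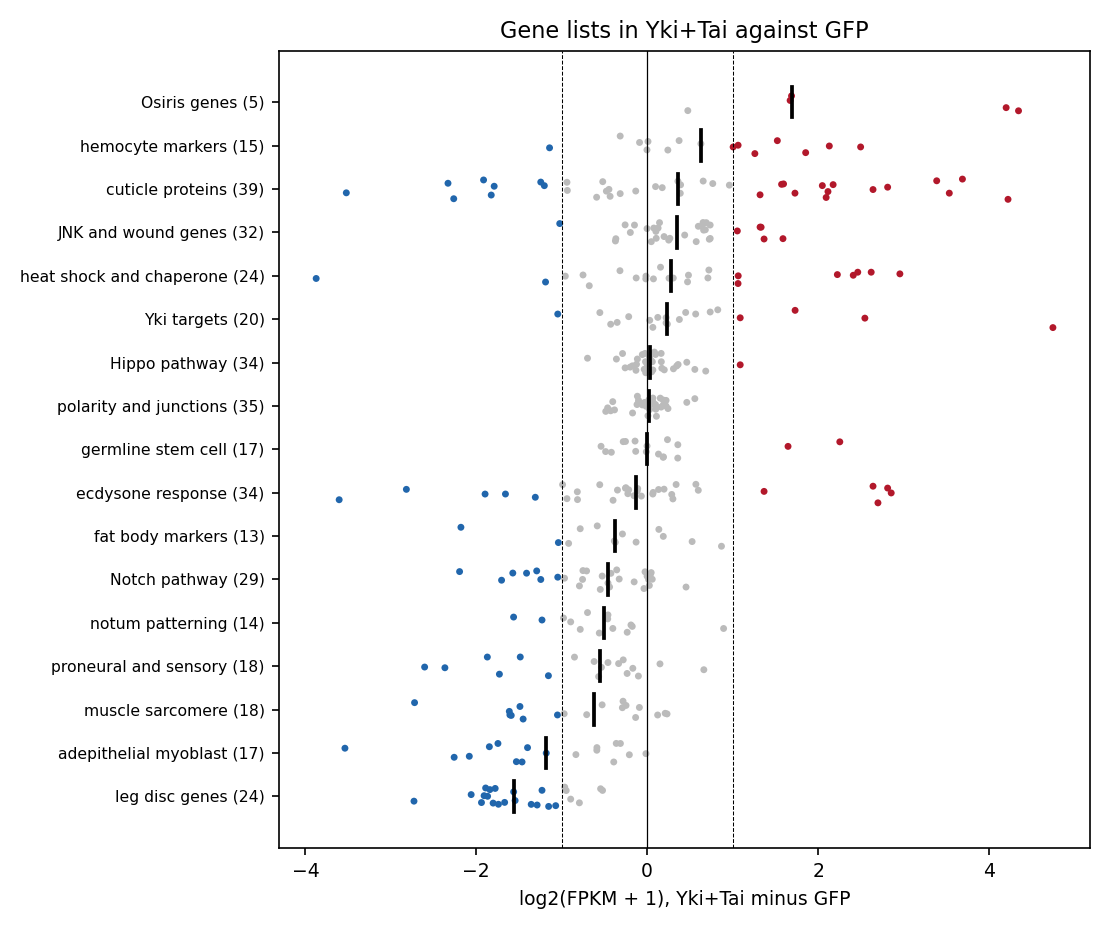
Differences of single genes by list. The x axis is log2(FPKM + 1) of Yki+Tai minus GFP, each point is a gene past the filter (numbers in brackets), black bars are list medians, red and blue points are at least 2-fold higher and lower, and dashed lines mark 2-fold. Medians of the Osiris, hemocyte and cuticle members kept are 1.69, 0.63 and 0.36, but 2, 4 and 7 of their higher members passed the filter only through Yki+Tai, and with no filter the medians are 0.12, 0.37 and 0.00. The Hippo and polarity lists sit at 0.04 and 0.02, and all leg disc and myoblast genes lie left of 0.

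Growth machinery differed little, with small shifts that many members shared. Of 81 cytosolic ribosomal protein genes past the filter 67 lay above 0, with a median of 0.15, and the 1 lower member was RpS19b, a minor paralogue at 2.64 FPKM in Yki+Tai and 8.45 in GFP. All 27 genes in the proteasome list lay below 0, with a median of -0.49 and 0 calls; Prosap, a synaptic scaffold gene caught by its name, is among them at -0.07. Prosalpha5, a core subunit, measured 173 FPKM in Yki+Tai, 252 in Yki, 302 in Yki+Tai-IR and 292 in GFP. Of 22 oxidative phosphorylation genes 21 lay below 0, with a median of -0.35, as for the respiratory gene CoVa at 253 FPKM in Yki+Tai and 395 in GFP. Of 45 DNA replication genes 38 lay below 0, with a median of -0.15, and the replication clamp gene mus209 (PCNA) measured 276 FPKM in Yki+Tai, 385 in Yki, 454 in Yki+Tai-IR and 413 in GFP. The mitosis and cell cycle lists had 0 calls among 46 and 28 genes, with medians of 0.04 and -0.04. The string phosphatase gene stg, which drives entry into mitosis, measured 69.4 FPKM in Yki+Tai, 73.5 in Yki, 79.1 in Yki+Tai-IR and 48.2 in GFP. Among 36 Myc and nucleolar genes 29 lay below 0, with a median of -0.18, and 1 was higher. That gene, CG8801, annotated as the nucleolar GTPase gene Non1, measured 1029 FPKM in Yki+Tai, 480 in Yki, 416 in Yki+Tai-IR and 327 in GFP, a ratio of 3.15 (3.06 to 3.24). FPKM sets each gene against the whole library, so shifts of this size in large groups are relative to the other transcripts.

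**Figure D5:**
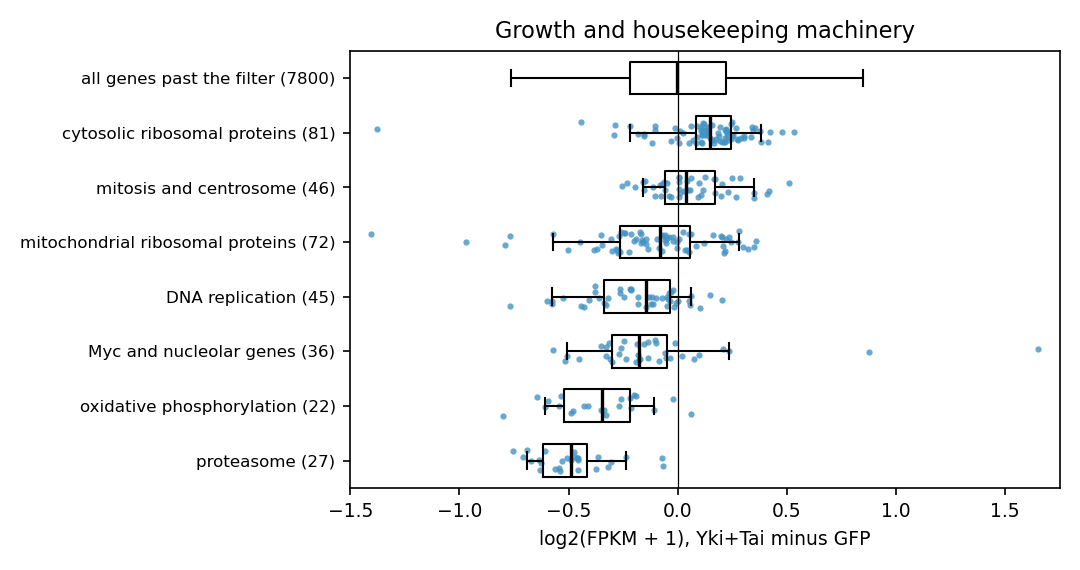
Differences of growth and housekeeping genes. The x axis is log2(FPKM + 1) of Yki+Tai minus GFP; boxes span the quartiles with the median as a black line, whiskers run from the lowest to the highest 5%, and blue points are single genes (numbers in brackets; yki and tai are left out of the first row). The medians run from 0.15 for cytosolic ribosomal proteins to -0.49 for the proteasome, and CG8801 is the point far to the right of the nucleolar genes.

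Stress and metabolic genes gave a divided picture. Of 24 heat shock and chaperone genes past the filter 7 were higher and 2 lower, with a median of 0.28. Hsp68 measured 178 FPKM in Yki+Tai, 7.17 in Yki, 335 in Yki+Tai-IR and 22.0 in GFP, and Hsp22 measured 74.0, 4.66, 171 and 12.6 FPKM in Yki+Tai, Yki, Yki+Tai-IR and GFP. Both were highest in Yki+Tai-IR and lowest in Yki, and the part of heat stress in the other results was not tested. Hsp70Bbb measured 277 FPKM in Yki+Tai, 264 in Yki, 205 in Yki+Tai-IR and 51.2 in GFP, but the Hsp70 copies are near identical and share fragments. The abundant small heat shock genes lay within 2-fold, with Hsp27 at 1678 FPKM in Yki+Tai and 2823 in GFP, Hsp23 at 2243 in Yki+Tai and 3587 in GFP, and Hsp26 at 585 in Yki+Tai and 421 in GFP. In the list of sugar metabolism 3 of 22 genes past the filter were higher and 2 lower. Beside ImpL3, the trehalose transporter gene Tret1-1 measured 9.07 FPKM in Yki+Tai, 2.62 in Yki, 6.06 in Yki+Tai-IR and 1.01 in GFP. The gluconeogenic genes Pepck and fbp were lower, at 39.0 and 19.9 FPKM in Yki+Tai and 118 and 53.2 FPKM in GFP. Polarity genes lay close to the control, with 0 calls among 35 past the filter and a median of 0.02. Of the 26 basement membrane genes past the filter 1 was higher and 3 lower, beside 3.96% and 3.49% of all genes. Among the lower was mp, a collagen gene, at 4.47 FPKM in Yki+Tai and 12.5 in GFP.

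Called genes were found on every chromosome. Higher genes made up 3.51% of the 1309 genes on X, 4.73% on 2L, 3.98% on 2R, 4.20% on 3L, 3.34% on 3R and 4.84% of the 62 genes on 4. The lower genes made up 3.21% on X, 2.93% on 2L, 3.08% on 2R, 3.28% on 3L, 4.36% on 3R and 4.84% on 4. Runs of at least 3 called genes, neighbours among the genes past the filter, included the Gr64, Osiris and Lcp blocks above. Others were nimB4, He and nimC1 of the hemocyte list on 2L, and phm, Cyp18a1 and CCKLR-17D3 on X. The gene phm, better known as an ecdysone synthesis gene of the ring gland, measured 4.60 FPKM in Yki+Tai, 2.28 in Yki, 1.746 in Yki+Tai-IR and 1.18 in GFP next to Cyp18a1. A further run, of Cpr100A, CG15545 and CG15546, lay at 3R:30867521-30876186 (dm6). All 3 were at least 3.20 higher on the log2 scale.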

How the data were processed

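The deposited values are FPKM for 4 wing disc libraries, made by the authors with CASAVA 1.4, TopHat2 2.0.12 and Cuffdiff 2.2.1 on dm6, per the submitters' processing notes. Per the labels' protocols, 4 µg of total RNA per pool was depleted of ribosomal RNA and made into TruSeq RNA version 2 libraries, which keep no strand, and sequenced on an Illumina HiScan. The sources used here give neither the gene annotation nor the options of these tools. An FPKM is a fragment count over length and depth, so it depends on how fragments were divided where genes overlap, lie antisense or are near-identical copies.

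Depth was estimated as the value at which FPKM of low single-transcript genes become whole fragments after 210 nt is taken from the transcript length. Between 72.4% and 76.5% of values then came within 0.08 of whole, where chance alone gives 16%. On 2 kb, 3 fragments correspond to 0.120 FPKM in Yki+Tai and 0.186 in GFP. Coordinates and exon overlaps come from Ensembl release 115 (dm6 coordinates), in which 13553 symbols were found, 3024 by way of a synonym, and 437 were not.

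Genes were counted at a difference of 1 or more in log2(FPKM + 1) among those with a mean of 1 FPKM or more. No statistical test between libraries was possible. The members and the gene lists were chosen with earlier results of these data known, and lists share members. Named genes were the 15 highest and 15 lowest differences, a fixed set of transgene, compartment, target, germline and ecdysone genes, and up to 4 members per list with the largest difference. Others, such as puc, Socs36E and the neighbours in a run, were picked with their values in view. The code that counts genes was checked on simulated libraries, which give no value printed here. Alternatives changed the pseudocount, scaling, FPKM filter, zeros, small-RNA genes, other-tissue genes and the use of counting intervals. Those on exon overlap and on low fragments were chosen after seeing the data. All steps ran in Python 3.11.15, numpy 2.4.6, pandas 2.3.3, scipy 1.17.1 and matplotlib 3.10.9.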

Additional observations from a re-analysis of the deposited data

How the results depend on the processing

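With a pseudocount of 5 FPKM 165 genes were higher and 128 lower, and a filter at a mean of 5 FPKM left 175 that were higher and 171 lower; the first shrinks differences of low genes and the second leaves such genes out. Under the other alternatives the counts stayed within 1.5 times 309 and 272: they ran from 231 (counting interval wholly past 2-fold) to 404 (pseudocount of 0.1) for higher genes and from 217 (genes under 50 estimated fragments left out) to 357 (pseudocount of 0.1) for lower genes. Of the genes called, 227 of 309 and 212 of 272 also had their counting interval wholly past 2-fold. Rescaling by the median ratio gave 313 and 270, and shifted all genes by 0.01 on the log2 scale. Of the list medians that lay 0.2 or more from 0, none reversed in sign under the 8 alternatives run for the lists. The pseudocounts and rescalings among these had little or no room to reverse such a median, so only the changes of filter and zeros bear on this. A fall to 0 was not counted as a reversal. The cuticle and immune medians lay at 0.36 and 0.45 with the filter and at 0.00 without it. Smaller medians could change sign, as for the apoptosis list, at -0.06 with the filter and 0.05 without it. With no FPKM filter 10 of 50 list medians moved. For 215 named genes the pseudocounts and scalings were run: 91 moved with a pseudocount of 5, 34 with 0.1 and 0 on rescaling. None reversed, but none could: a pseudocount keeps the sign of a difference, and the rescalings shifted genes by only 0.01 and -0.01. Reversal was counted only for differences of 1 or more. No paired analysis was possible because each genotype has 1 library and its difference comes from no test, and no library could be left out for the same reason. Differences between pools cannot be told apart from the transgenes. Below about 3 fragments, 0.120 FPKM in Yki+Tai and 0.186 in GFP on 2 kb, levels are not resolved.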

Other observations

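A few families outside the lists were looked at after their values had been seen. Of 20 cytochrome P450 genes past the filter 7 were higher in Yki+Tai and 1 was lower, beside 3.96% and 3.49% of all genes, with a median difference of 0.54 beside -0.00 over all genes. Among 9 Cyp6 genes, which act in detoxification, 5 were higher. Cyp6a17 measured 33.8 FPKM in Yki+Tai, 25.2 in Yki, 21.6 in Yki+Tai-IR and 11.01 in GFP, and Cyp6g2 measured 9.39, 0.585, 0.740 and 0.624 FPKM in Yki+Tai, Yki, Yki+Tai-IR and GFP. The larval P450 gene Cyp4e2 was the lower member, at 3.63 FPKM in Yki+Tai and 11.1 in GFP. Of 7 odorant-binding protein genes 1 was higher and 3 were lower. Obp56d measured 9.96 FPKM in Yki+Tai, 0.555 in Yki, 443 in Yki+Tai-IR and 1.64 in GFP, and Obp56a measured 27.1, 130, 83.1 and 94.95 FPKM in Yki+Tai, Yki, Yki+Tai-IR and GFP. In the yellow family, whose founding gene acts in pigmentation, yellow-b was higher at 30.1 FPKM in Yki+Tai and 7.499 in GFP, and yellow-e3 was lower at 3.31 FPKM in Yki+Tai and 15.3 in GFP.

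Some genes were on in 1 library. Of the 7802 genes past the filter, 13 were at 5 FPKM or more in Yki+Tai and under 1 in the other 3 libraries. Among them were Edg84A, Cpr100A, nimC1, Sr-CI, Cyp6g2 and dpr17. In GFP 0 genes had this pattern, and it was not sought in Yki or Yki+Tai-IR. The cell-surface gene dpr17 measured 12.7 FPKM in Yki+Tai, 0.254 in Yki, 0.693 in Yki+Tai-IR and 0.452 in GFP. The non-coding RNAs roX1 and roX2, which coat the single X of males, measured 222 and 165 FPKM in Yki+Tai, 324 and 270 in Yki, 202 and 144 in Yki+Tai-IR and 136 and 103 in GFP. The sex of the pooled larvae is not in the labels, and its part in other genes was not tested.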
